A study of Rattus norvegicus with 24 samples.

Results

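Cyclic AMP (cAMP) is made by adenylyl cyclases, broken down by phosphodiesterases and read out by protein kinase A (PKA), which A-kinase anchoring proteins hold at particular places in the cell. The genes of these families were described in the nucleus accumbens (NAc) of rats given lipopolysaccharide (LPS), heroin or both. Members were the protein-coding genes whose symbol begins with Adcy followed by a number, with Pde followed by a number and a letter from a to d, with Prkac or Prkar, or with Akap followed by a number. The rule found 54 of the 32545 genes listed, of which 22293 are protein coding. They are 10 adenylyl cyclases, 21 phosphodiesterases, 2 catalytic and 4 regulatory subunits of PKA and 17 A-kinase anchoring proteins. Several of the phosphodiesterases act on cyclic GMP as well as, or in place of, cAMP.

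RNA-seq values were held for 24 libraries in 6 groups of 4, each from the NAc of an adult male Sprague Dawley rat that had arrived at 8 weeks of age. In the injection experiment, rats received 5 intraperitoneal injections of saline or of LPS (250 µg/kg), an endotoxin of Gram-negative bacteria that activates innate immunity. These were followed by 5 days of intraperitoneal saline or of heroin rising from 1 to 5 mg/kg, and per the labels tissue was taken 1 h after the last injection. In the self-administration experiment, rats with a jugular catheter had 10 sessions of 6 h in which they could take saline or heroin at 0.075 mg/kg per infusion, and tissue was taken straight after the last session.

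Saline-Saline rats therefore had saline in both phases, LPS-Saline rats LPS and then saline, Saline-Heroin rats saline and then heroin, and LPS-Heroin rats LPS and then heroin. Saline-SA rats took saline and Heroin-SA rats took heroin. All 16 injection rats carried the handling and the injections, and all 8 self-administration rats the surgery and the sessions. The labels give 7 days between LPS and heroin, and the methods of the study give a shorter interval. Those methods also place a locomotor recording after the last injection and the taking of tissue within an hour of its end, so the time from injection to tissue may have been longer than the labels give. Self-administration rats were housed singly in a reversed light cycle, and injection rats in pairs in a normal one. Route, dose, duration, housing, light cycle and time of tissue collection thus differ together between the experiments and cannot be told apart.

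Opioid receptors, the targets of the morphine that heroin yields, couple to inhibitory G proteins that lower the activity of adenylyl cyclase, whereas dopamine D1 and certain adenosine receptors of the striatum raise it through the stimulatory protein Golf. In medium spiny neurons, the projection neurons that make up most of the striatum and the NAc, the main cyclase is type 5, and PKA phosphorylates DARPP-32 and the transcription factor CREB, which acts on genes with a cAMP response element (CRE). A rise of cyclase activity during long opioid exposure is a textbook adaptation of opioid-sensitive neurons. These are statements of background, and neither cAMP nor enzyme activity was measured here.

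Reads on genes numbered 12312878 to 18850240 per library. Each list of marker genes for a neighbouring tissue was read in every library by averaging log2(FPKM + 0.1) across its genes with a mean of at least 0.5 FPKM. The medium spiny neuron list of 14 genes had all of its markers, Drd1, Drd2 and Ppp1r1b among them, in every library. Saline-Saline replicates 1 and 4 and LPS-Heroin replicate 4 had the highest choroid plexus values, at 3.30, 1.57 and 2.13 beside a lowest value of -2.14 in LPS-Saline. These values rest on 3 of the 9 genes listed. The listed genes found summed to 335, 13.2 and 32.6 FPKM in those libraries, beside 11.15 FPKM in LPS-Saline replicate 4. Saline-Saline replicates 1 and 4 also had the highest values of the list for septum and ventral forebrain, at 3.33 and 3.02. Mitochondrial genes held 7.78% ± 0.82 (SD, n = 4) of reads in Saline-Saline and 8.31% ± 0.58 in LPS-Heroin, with the other injection groups between these, against 12.9% ± 2.47 in Saline-SA and 10.8% ± 0.74 in Heroin-SA.

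Levels are given in FPKM, fragments per kilobase of gene scaled to a size of the library. They are per length and can be set side by side between genes. The size recovered from the values was 0.940 to 1.05 times the reads on genes, so it was not their plain sum. Of the 54 members, 47 had a mean of at least 0.5 FPKM in the libraries of every comparison and were tested. The other 7 were Adcy10, Akap3, Akap4, Akap14, Pde6a, Pde6b and Pde6c, with means over the 24 libraries between 0 and 0.165 FPKM. Akap4, the anchor of the sperm tail, had no read in any library. A member was called in a comparison when limma gave an unadjusted p of at most 0.05 and the change was at least 1.3-fold, and "rose" and "fell" are used for calls. In 470 tests over 10 contrasts there were 13 calls in 6 members, Adcy1, Adcy7, Pde1a, Pde8a, Akap6 and Akap12. After Benjamini-Hochberg adjustment over all genes in limma, 0 members passed 0.05 in any contrast, and the smallest adjusted p of a member was 0.154.

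The shares that follow are of means over all 24 libraries, and some orders differ between groups. Among the cyclases, Adcy5, the striatal isoform, held 59.3% of the summed FPKM of the family. It was followed by Adcy2 with 15.7%, Adcy3 with 7.54% and the calcium-stimulated Adcy1 with 6.21%, although the mean of Adcy1 was above that of Adcy3 in Saline-Heroin (16.7 and 15.6 FPKM) and LPS-Heroin (23.0 and 18.8 FPKM). Pde1b, a calcium- and calmodulin-dependent enzyme, held 38.4% of the summed phosphodiesterase level and Pde2a, which cyclic GMP stimulates, held 21.1%. Pde6d, which carries a phosphodiesterase name but binds lipid-modified proteins, held 7.36%, and Pde10a, the enzyme best known from medium spiny neurons, held 7.34%. Prkacb made up 63.4% of the catalytic subunits, but in Saline-SA it was the lesser one, with a mean of 70.6 FPKM beside 82.6 FPKM for Prkaca. Of the regulatory subunits, Prkar1a held 47.9%, Prkar1b 36.0%, Prkar2b 12.9% and Prkar2a 3.25%. The anchors were spread more evenly, with Akap8l at 20.1%, Akap11 at 14.8% and Akap5, the anchor of the postsynaptic density, at 13.3%. Akap8l overlaps Akap8 on the same strand, so the values of both are uncertain. Adcy5 and Adcy2 did not overlap in any library, nor did Adcy2 and Adcy3.

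**Figure D1:**
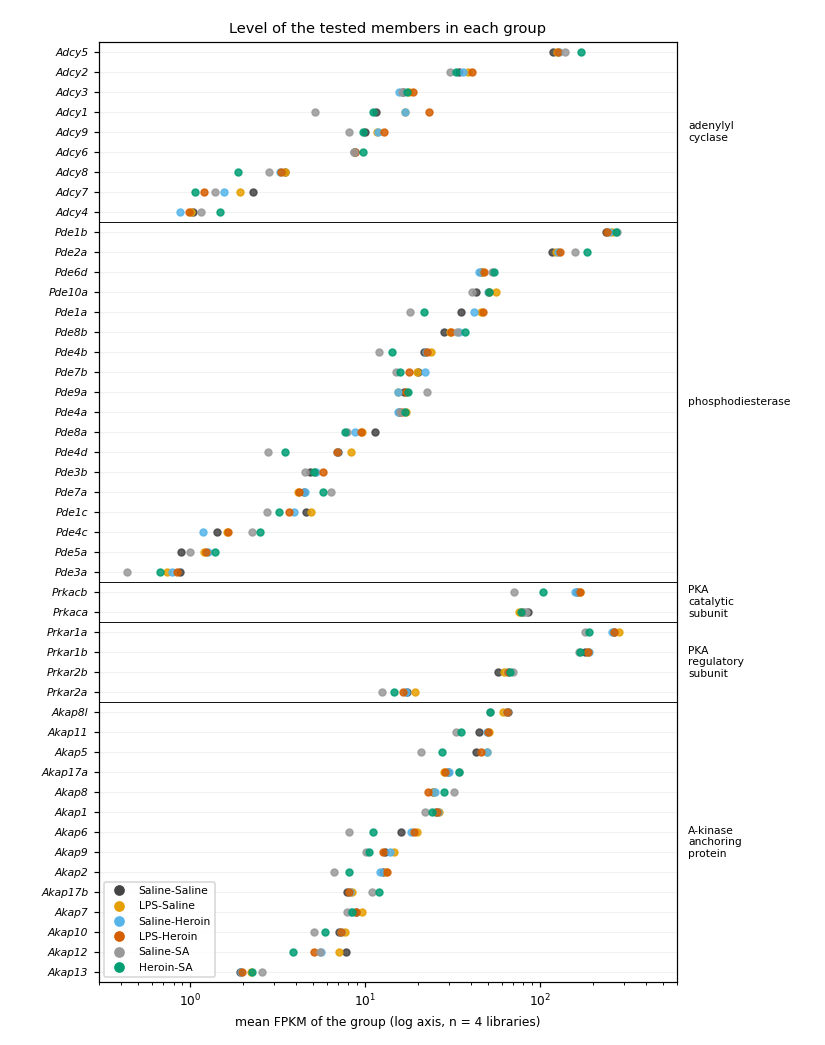
Mean FPKM of the 47 tested members in each of the 6 groups on a log axis, ordered by family and level, with 1 point per group of 4 libraries. Pde1b, Prkar1a, Prkar1b, Pde2a, Prkacb and Adcy5 lie to the right, and Adcy1 and Akap5 are among the members whose Saline-SA point lies farthest to the left of the injection groups.

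The member with the most calls was Adcy1, the calmodulin-stimulated cyclase of cortical and hippocampal neurons (ENSRNOG00000059479; rn6 chromosome 14, 87312203 to 87421659, plus strand). It had 8.94, 12.5, 8.14 and 16.4 FPKM in Saline-Saline, 16.7, 20.5, 13.4 and 16.8 FPKM in LPS-Saline, 22.8, 11.3, 21.1 and 11.7 FPKM in Saline-Heroin and 25.5, 30.7, 15.7 and 20.2 FPKM in LPS-Heroin. Values in LPS-Heroin lay mostly above those in Saline-Saline, and only LPS-Heroin replicate 3 lay below Saline-Saline replicate 4. It rose in LPS-Heroin by 1.01 on the log2 scale (standard error 0.26, adjusted p = 0.224 in limma), and the two-sided exact permutation test of the 8 libraries gave p = 0.0571. In LPS-Saline it rose by 0.59 on the log2 scale (standard error 0.22, adjusted p = 0.729 in limma). Saline-Heroin differed by 0.52 without a call (standard error 0.30, adjusted p = 0.753 in limma).

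Over the 16 injection libraries, Adcy1 rose both with LPS (0.54, standard error 0.19, adjusted p = 0.708 in limma) and with heroin (0.47, standard error 0.19, adjusted p = 0.586 in limma). The test of whether the heroin effect differed with LPS history gave a log2 difference of -0.10, with 2 standard errors either side spanning -0.87 to 0.68. In the self-administration experiment, Adcy1 had 7.4, 5.93, 3.64 and 3.66 FPKM in Saline-SA and 8.63, 17.3, 6.2 and 12.2 FPKM in Heroin-SA. The groups overlapped, since Heroin-SA replicate 3 lay below Saline-SA replicate 1. Adcy1 rose in Heroin-SA by 1.05 (standard error 0.34, adjusted p = 0.347 in limma; two-sided exact permutation p = 0.0571). The heroin effect of the 2 experiments differed by 0.53, with a span of -0.43 to 1.5 at 2 standard errors.

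The call of Adcy1 in LPS-Saline was lost without Saline-Saline replicate 1 or 3 and without LPS-Saline replicate 2 or 4, and that for heroin over the 16 libraries was lost in 7 of 16 fits that each left out 1 library (Saline-Saline 1 or 3, LPS-Saline 3, Saline-Heroin 1 or 3, LPS-Heroin 1 or 2). The values without these libraries were 0.44 to 0.58 and 0.38 to 0.44. Beside Adcy1, the list of cortical glutamatergic neurons had its highest mean value in LPS-Heroin, at 3.61, followed by 3.18 in Saline-Heroin, 3.07 with LPS alone and 2.67 in Saline-Saline, and had 2.43 in Saline-SA and 2.81 in Heroin-SA. Its 9 genes found, of 10, summed to 114 to 325 FPKM in Saline-Saline and to 420.0 to 508 FPKM in LPS-Heroin, and none was at 0 in any library. In LPS-Heroin against Saline-Saline, 9 of the 9 were higher and 7 were called. The part of cortical tissue in the Adcy1 result was not tested. In bulk tissue, a change in the number of cells of a type and a change of RNA per cell cannot be told apart.

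Adcy7, a cyclase found in immune and glial cells and regulated by protein kinase C (ENSRNOG00000014776; rn6 chromosome 19, 19704859 to 19727081, minus strand), was among the lowest cyclases. It had 2.52, 1.9, 2.5 and 2.23 FPKM in Saline-Saline, 1.24, 2.11, 2.9 and 1.47 FPKM in LPS-Saline, 1.04, 2.96, 0.841 and 1.35 FPKM in Saline-Heroin and 1.04, 1.03, 1.38 and 1.33 FPKM in LPS-Heroin. Each LPS-Heroin library was below each Saline-Saline library. Adcy7 fell in LPS-Heroin by 0.88 on the log2 scale (standard error 0.18, adjusted p = 0.179 in limma; two-sided exact permutation p = 0.0286, the smallest that 4 libraries against 4 allow), and with heroin over the 16 libraries by 0.63 (standard error 0.23, adjusted p = 0.572 in limma). In self-administration, 1.19, 1.88, 1.09 and 1.36 FPKM in Saline-SA and 1.2, 0.879, 0.948 and 1.21 FPKM in Heroin-SA were read, and the log2 difference of -0.33 (standard error 0.25) was not called. Both calls of Adcy7 were made in every alternative fit.

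Akap12, also known as gravin, binds PKA, protein kinase C and beta-adrenergic receptors (ENSRNOG00000019549; rn6 chromosome 1, 40816107 to 40906581, plus strand). It had 7.61, 7.32, 7.75 and 8.48 FPKM in Saline-Saline, 4.66, 7.09, 9.51 and 6.97 FPKM in LPS-Saline, 4.19, 8.75, 3.72 and 5.77 FPKM in Saline-Heroin and 3.83, 4.44, 6.78 and 5.26 FPKM in LPS-Heroin. Saline-Saline libraries lay close together, and those of LPS-Heroin lay below them without overlap. Akap12 fell in LPS-Heroin by 0.64 (standard error 0.16, adjusted p = 0.224 in limma; two-sided exact permutation p = 0.0286) and with heroin over the 16 libraries by 0.50 (standard error 0.18, adjusted p = 0.571 in limma). It also fell in Saline-Heroin by 0.54 (standard error 0.24, adjusted p = 0.750 in limma), a call that 7 of the 8 fits with 1 library left out did not make (log2 -0.58 to -0.38), all but the one without Saline-Heroin replicate 2. Heroin-SA and Saline-SA overlapped, with 3.4, 4.57, 5.84 and 8.33 FPKM in Saline-SA and 3.87, 3.1, 3.97 and 4.56 FPKM in Heroin-SA, and the log2 difference was -0.44 (standard error 0.25).

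Beside Adcy7 and Akap12, the list for septum and ventral forebrain had its highest mean value in Saline-Saline, at 2.60, followed by 1.84 in Saline-Heroin, 1.80 with LPS alone and 1.38 in LPS-Heroin, and had 1.78 in Saline-SA and 1.28 in Heroin-SA. Its 8 genes summed to 37.7 to 128 FPKM in Saline-Saline and to 18.7 to 47.0 FPKM in LPS-Heroin, and none was at 0. All 8 were lower in LPS-Heroin than in Saline-Saline and 5 were called. Without Saline-Saline replicates 1 and 4, an alternative chosen after seeing the data, Adcy1, Adcy7 and Akap12 were still called in LPS-Heroin against Saline-Saline and Pde1a, at 0.34, was not, while 0 members were called in Saline-Heroin against Saline-Saline. Saline-Saline replicates 2 and 3, which that fit kept, had septal list values of 1.905 and 2.12, beside 0.72 to 2.09 in LPS-Heroin. The fit thus did not make the groups alike on the list, and the part of septal tissue in these results was not tested.

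**Figure D2:**
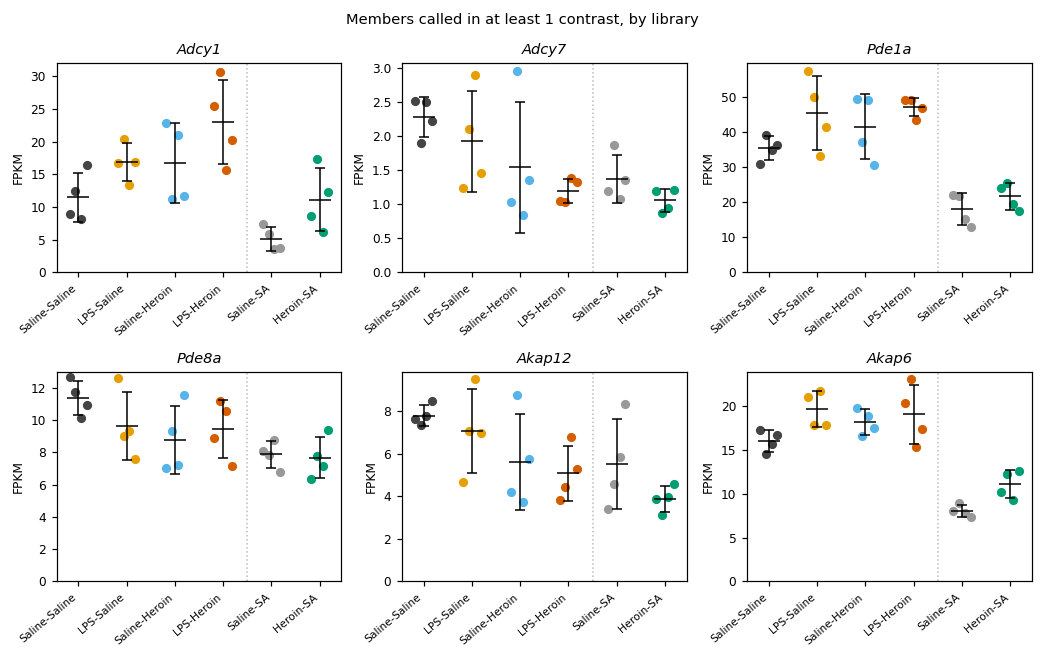
FPKM of the 6 called members in each library, grouped by treatment. Points are libraries, the long bar is the mean and the whiskers are 1 SD (n = 4), and the dotted line parts the injection from the self-administration experiment. Adcy1 is highest in LPS-Heroin, Adcy7 and Akap12 are lower in LPS-Heroin than in Saline-Saline without overlap, and Pde1a and Akap6 lie lower in both self-administration groups than in the injection groups.

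The remaining cyclases were not called in any contrast. Adcy5 had 96.1, 120.2, 163 and 95.1 FPKM in Saline-Saline, 117, 107, 156 and 114 FPKM in LPS-Saline, 121, 119, 126 and 148 FPKM in Saline-Heroin and 102, 157, 128 and 120.3 FPKM in LPS-Heroin. In self-administration it had 142, 149, 159 and 104 FPKM in Saline-SA and 158, 177, 133 and 212 FPKM in Heroin-SA, with a log2 difference of 0.29 (standard error 0.17, adjusted p = 0.514 in limma). The spread within a group was as wide as the differences between groups, and 2 standard errors around the heroin effect of the injection experiment spanned -0.15 to 0.33. Adcy3, the cyclase of neuronal cilia, had 15.6, 18.2, 17.5 and 14.5 FPKM in Saline-Saline, 17.6, 18.1, 18.2 and 17.6 FPKM in LPS-Saline, 16.9, 15.4, 13.5 and 16.7 FPKM in Saline-Heroin and 16.1, 21.1, 20.3 and 17.7 FPKM in LPS-Heroin. In self-administration Adcy3 had 17.4, 17.5, 15.5 and 14.5 FPKM in Saline-SA and 18.1, 19.1, 16 and 16.3 FPKM in Heroin-SA, so that its 24 libraries stayed between 13.5 and 21.1 FPKM. Adcy3 overlaps Cenpo and a ribosomal RNA gene on the opposite strand, and its values are uncertain because the use of strand in the counting is not stated. Adcy2 was higher in each LPS-Heroin library than in each Saline-Heroin library, at 40.4 ± 1.5 and 36.3 ± 1.7 FPKM (SD, n = 4). The change was under 1.3-fold (log2 0.15, standard error 0.06) and Adcy2 was not called.

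Of the 18 phosphodiesterases tested, Pde1a and Pde8a were called. Pde1a is a calcium- and calmodulin-dependent enzyme like Pde1b (ENSRNOG00000054212; rn6 chromosome 3, 66803247 to 66885094, minus strand). It had 31, 39.3, 35 and 36.3 FPKM in Saline-Saline, 57.5, 50.01, 33.1 and 41.4 FPKM in LPS-Saline, 49.5, 37.2, 49 and 30.6 FPKM in Saline-Heroin and 49.1, 49.1, 43.5 and 46.9 FPKM in LPS-Heroin. Each LPS-Heroin value was above each Saline-Saline value, and LPS-Saline and Saline-Heroin spread over the range of both. Pde1a rose in LPS-Heroin by 0.42 (standard error 0.08, adjusted p = 0.154 in limma; two-sided exact permutation p = 0.0286), and without Saline-Saline replicate 1 the rise was 0.35, under 1.3-fold. In self-administration, Pde1a had 22, 21.8, 15.2 and 13 FPKM in Saline-SA and 24.1, 25.4, 19.5 and 17.5 FPKM in Heroin-SA, with a log2 difference of 0.29 (standard error 0.19) that was not called.

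Pde8a, an enzyme with high affinity for cAMP (ENSRNOG00000019005; rn6 chromosome 1, 143036218 to 143159433, plus strand), had 12.6, 11.7, 10.1 and 10.9 FPKM in Saline-Saline, 12.6, 8.99, 9.3 and 7.58 FPKM in LPS-Saline, 7.02, 9.28, 7.23 and 11.5 FPKM in Saline-Heroin and 8.86, 11.2, 10.5 and 7.14 FPKM in LPS-Heroin. Saline-Heroin replicate 4 lay within the Saline-Saline range and the other Saline-Heroin libraries below it. Pde8a fell in Saline-Heroin by 0.39 (standard error 0.16, adjusted p = 0.750 in limma; two-sided exact permutation p = 0.0857), and 5 of the 8 fits without 1 library did not make the call (log2 -0.41 to -0.30, without Saline-Saline 1, 2 or 4 or Saline-Heroin 1 or 3). In self-administration it had 8.1, 7.82, 8.77 and 6.74 FPKM in Saline-SA and 6.35, 7.79, 7.12 and 9.38 FPKM in Heroin-SA, with no call. A small nucleolar RNA, SNORA44, lies within its span on the opposite strand, so its values are uncertain.

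Among the phosphodiesterases without a call, the calcium-dependent Pde1b had 185, 252, 326 and 193 FPKM in Saline-Saline, 246, 222, 303 and 259 FPKM in LPS-Saline, 246, 222, 246 and 273 FPKM in Saline-Heroin and 193, 281, 244 and 243 FPKM in LPS-Heroin. Its self-administration libraries had 272, 288, 319 and 213 FPKM in Saline-SA and 249.9, 265, 229 and 337 FPKM in Heroin-SA. Pde10a had 36.5, 41.4, 60.5 and 34.2 FPKM in Saline-Saline, 53.9, 44.8, 74.9 and 48.8 FPKM in LPS-Saline, 47.2, 43.5, 47.9 and 61.7 FPKM in Saline-Heroin and 42.9, 76.9, 38.3 and 46.4 FPKM in LPS-Heroin. Pde10a and Pde1b were both highest in Saline-Saline replicate 3 within their group and lowest in replicates 1 and 4. In self-administration Pde10a had 44, 44.3, 43.9 and 30.6 FPKM in Saline-SA and 39.7, 55.7, 37 and 70.9 FPKM in Heroin-SA. The cyclic GMP-stimulated Pde2a had 103, 124, 142 and 96.9 FPKM in Saline-Saline, 117, 121, 127 and 127 FPKM in LPS-Saline, 144, 111, 120.2 and 126 FPKM in Saline-Heroin and 114, 142, 133 and 132 FPKM in LPS-Heroin. In self-administration it had 157, 149.7, 193 and 129 FPKM in Saline-SA and 179.7, 194, 171 and 192 FPKM in Heroin-SA, and it overlaps a microRNA gene, Mir139, on the same strand. Pde4b, one of the cAMP-specific enzymes that rolipram inhibits, had 21, 21.1, 25.9 and 18.8 FPKM in Saline-Saline, 23.3, 22.4, 29.7 and 19.8 FPKM in LPS-Saline, 20.5, 22.1, 21.9 and 23.8 FPKM in Saline-Heroin and 20.8, 27.3, 20.4 and 21.5 FPKM in LPS-Heroin. In self-administration it had 12.1, 13.3, 13.1 and 9.63 FPKM in Saline-SA and 13.4, 16.1, 9.49 and 17.4 FPKM in Heroin-SA, below every injection library.

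Neither catalytic subunit of PKA was called in any contrast. Prkacb, the beta subunit, had 169.9, 139.7, 201 and 136 FPKM in Saline-Saline, 175, 142, 183 and 171 FPKM in LPS-Saline, 167, 152, 146 and 170.4 FPKM in Saline-Heroin and 174, 181, 170.1 and 147 FPKM in LPS-Heroin. In self-administration it had 71.3, 82.9, 70.1 and 58.2 FPKM in Saline-SA and 89.3, 124, 59.4 and 144 FPKM in Heroin-SA, and the groups overlapped. The log2 difference between Heroin-SA and Saline-SA was 0.49 (standard error 0.25, adjusted p = 0.483 in limma). Without Heroin-SA replicate 3, and with all 24 libraries in one fit, Prkacb was called there. Prkaca, the alpha subunit, had 86.9, 85.8, 81.3 and 86.3 FPKM in Saline-Saline, 76.1, 83.1, 72.8 and 71.3 FPKM in LPS-Saline, 80.1, 91.5, 71.6 and 80.1 FPKM in Saline-Heroin and 65, 76.2, 86.8 and 85.2 FPKM in LPS-Heroin. Its self-administration libraries had 78.4, 87.2, 82.8 and 82.1 FPKM in Saline-SA and 76, 83.5, 80.4 and 68.1 FPKM in Heroin-SA, within the range of the injection libraries. The ratio of Prkacb to Prkaca was lowest among the injection groups in Saline-Saline, at 1.91 ± 0.41, and highest in LPS-Saline, at 2.23 ± 0.36, and was 0.854 ± 0.11 in Saline-SA and 1.38 ± 0.57 in Heroin-SA (SD, n = 4).

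Both type I regulatory subunits were abundant, and Prkar1a had a higher mean than Pde1b in all 4 injection groups and a lower one in both self-administration groups. Prkar1a had 266, 255, 263 and 265 FPKM in Saline-Saline, 274, 258, 291 and 304 FPKM in LPS-Saline, 257, 277, 235 and 258 FPKM in Saline-Heroin and 258, 275, 258 and 268 FPKM in LPS-Heroin. In self-administration Prkar1a had 185, 185, 191 and 160.3 FPKM in Saline-SA and 189, 203, 164 and 199 FPKM in Heroin-SA, below every injection library. Prkar1b, the neuronal type I subunit, had 175, 182, 177 and 182 FPKM in Saline-Saline, 174, 189, 164 and 225 FPKM in LPS-Saline, 206, 182, 187 and 179 FPKM in Saline-Heroin and 175, 185, 193 and 196 FPKM in LPS-Heroin. Its self-administration libraries had 174, 185, 154 and 149 FPKM in Saline-SA and 184, 169, 171 and 153 FPKM in Heroin-SA. Of the type II subunits, Prkar2b, the neuronal form, had 51.1, 56, 68.7 and 52.1 FPKM in Saline-Saline, 60.9, 56.9, 65.1 and 65.7 FPKM in LPS-Saline, 64.1, 70.7, 66.2 and 61.6 FPKM in Saline-Heroin and 56.6, 65, 69.1 and 71.1 FPKM in LPS-Heroin. In self-administration Prkar2b had 70.2, 73.6, 82 and 51.9 FPKM in Saline-SA and 62.1, 69.4, 63 and 75 FPKM in Heroin-SA, and it overlaps an unnamed gene on the same strand. Prkar2a had 20.8, 15.5, 16 and 17.2 FPKM in Saline-Saline, 18.9, 20.3, 20.4 and 17.7 FPKM in LPS-Saline, 17, 18.5, 16.6 and 16 FPKM in Saline-Heroin and 16.4, 18.1, 14 and 17.2 FPKM in LPS-Heroin. In self-administration Prkar2a had 13.7, 12.4, 12.8 and 11.1 FPKM in Saline-SA and 15.7, 17.3, 11.7 and 13.9 FPKM in Heroin-SA. None of the 4 regulatory subunits was called. The summed regulatory subunits stood at 2.11 ± 0.22 times the summed catalytic subunits in Saline-Saline, 2.17 ± 0.13 in LPS-Heroin, 2.79 ± 0.15 in Saline-SA and 2.49 ± 0.41 in Heroin-SA (SD, n = 4).

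Of the 14 anchors tested, Akap12 and Akap6 were called. Akap6, the anchor of the nuclear envelope also known as mAKAP (ENSRNOG00000004841; rn6 chromosome 6, 73553210 to 73990534, plus strand), had 8, 8.99, 7.82 and 7.35 FPKM in Saline-SA and 10.2, 12.3, 9.3 and 12.6 FPKM in Heroin-SA. Each Heroin-SA library was above each Saline-SA library. Akap6 rose by 0.45 (standard error 0.12, adjusted p = 0.331 in limma; two-sided exact permutation p = 0.0286), and the call was made in all 8 fits that left out 1 library. In the injection experiment it had 17.3, 14.5, 15.7 and 16.7 FPKM in Saline-Saline, 21, 17.8, 21.8 and 17.9 FPKM in LPS-Saline, 19.8, 16.6, 18.9 and 17.5 FPKM in Saline-Heroin and 20.4, 23.1, 15.4 and 17.4 FPKM in LPS-Heroin. There, LPS-Saline lay above Saline-Saline without overlap by 0.29 on the log2 scale (standard error 0.09, adjusted p = 0.679 in limma), which is under 1.3-fold. The test of whether its heroin effect differed between the experiments gave 0.27 with a span of -0.02 to 0.56 at 2 standard errors.

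Akap5, which holds PKA and calcineurin at synapses, had 35.8, 39.9, 64.3 and 32.6 FPKM in Saline-Saline, 51.7, 37.6, 64.3 and 44.9 FPKM in LPS-Saline, 51.7, 47.2, 51.5 and 49 FPKM in Saline-Heroin and 38.2, 57.8, 44 and 42.7 FPKM in LPS-Heroin. In self-administration it had 20.4, 26.8, 23.7 and 12.2 FPKM in Saline-SA and 24.7, 29.5, 15.5 and 39.98 FPKM in Heroin-SA. Only Heroin-SA replicate 4 reached the range of the injection libraries, and Akap5 was not called.

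Counts of called members were read against the share of all genes called by the same rule. In LPS-Saline against Saline-Saline, 1 of 47 members (2.13%) was called beside 2.36% of all genes. In Saline-Heroin against Saline-Saline, 2 of 47 (4.26%) were called beside 3.07%. In LPS-Heroin against Saline-Saline, 4 of 47 (8.51%) were called beside 5.42%. LPS-Heroin against LPS-Saline and against Saline-Heroin gave 0 called members beside 2.29% and 2.20% of all genes, although 1 and 2 members had an unadjusted p of at most 0.05 in limma, beside 4.6% and 4.21% of all genes. In limma-voom on the recovered reads, 1 and 0 members were called in these comparisons. Heroin-SA against Saline-SA called 2 of 47 (4.26%) beside 5.44%.

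Over the 16 injection libraries, heroin called 3 of 47 (6.38%) beside 2.45% of all genes, and LPS called 1 of 47 (2.13%) beside 1.75%. The LPS by heroin interaction and the difference of the heroin effect between the experiments called 0 members beside 2.31% and 4.38%. In limma, 0 members had an unadjusted p of at most 0.05 in either, beside 4.02% and 6.55% of all genes, and voom also called 0. Since 1 member is 2.13% of the 47, these counts lie within a few members of the background and say nothing particular about the members.

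Groups did not overlap for 3 members (6.38%) in LPS-Saline against Saline-Saline, namely Akap6, Akap17a and Pde4d, beside 4.11% of all genes. They did not overlap for 3 (6.38%) in LPS-Heroin against Saline-Saline beside 6.86%, for Adcy2 in LPS-Heroin against Saline-Heroin (2.13%) beside 2.37% and for Akap6 in Heroin-SA against Saline-SA (2.13%) beside 6.80%. In Saline-Heroin against Saline-Saline and LPS-Heroin against LPS-Saline all members overlapped, beside 3.39% and 2.58% of all genes that did not. In all, 41 tested members were not called in any contrast. In size, the largest log2 difference among members not called against Saline-Saline was 0.68 for Saline-Heroin, 0.45 for LPS-Heroin and 0.38 for LPS-Saline, and it was 0.53 in Heroin-SA against Saline-SA.

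The tested members leaned to higher values in some contrasts. Their median log2 fold change was 0.10 in LPS-Saline against Saline-Saline, with 34 of 47 positive, beside a median of 0.00678 over all 15119 genes. It was 0.13 in Heroin-SA against Saline-SA, with 36 of 47 positive, beside 0.00888 over all 15024 genes. For heroin over the 16 injection libraries the median was -0.000404 with 23 positive.

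**Figure D3:**
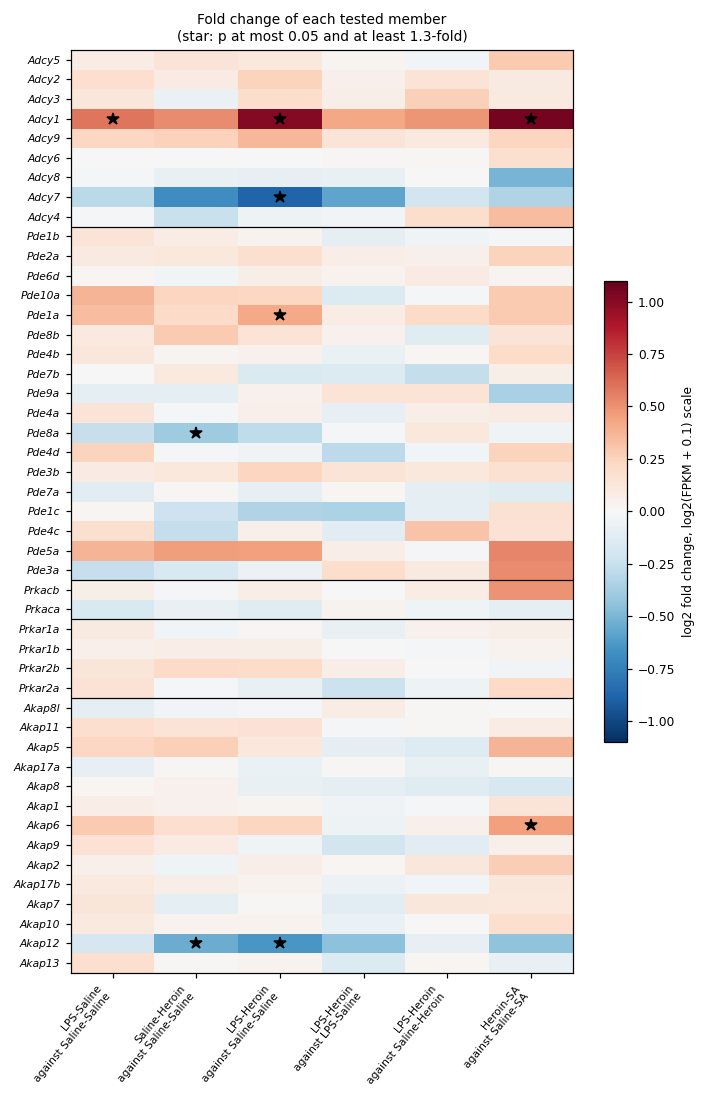
Log2 fold change of the 47 tested members in the 6 pair comparisons, on the log2(FPKM + 0.1) scale, with red for higher and blue for lower in the first group named. Stars mark calls, which lie in the rows of Adcy1, Adcy7, Pde1a, Pde8a, Akap6 and Akap12, and most other cells are pale.

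Injected and self-administered heroin could be set side by side, since those comparisons share no library. Adcy1 differed by 0.52 and 1.05, Akap12 by -0.54 and -0.44, Adcy7 by -0.68 and -0.33 and Akap6 by 0.18 and 0.45 on the log2 scale in Saline-Heroin against Saline-Saline and in Heroin-SA against Saline-SA. Pde1a differed by 0.21 and 0.285 and Pde8a by -0.39 and -0.045. These are the called members, which were picked from these same data. Of the 47 members, 27 had the same sign in both. Across the members, which are not independent replicates, Pearson's r was 0.576 and Spearman's rho 0.394. No such value over all genes is set beside these. Means of the cortical list went from 2.67 in Saline-Saline to 3.18 in Saline-Heroin and from 2.43 in Saline-SA to 2.81 in Heroin-SA. Those of the septal list went from 2.60 to 1.84 and from 1.78 to 1.28. The part of tissue in this likeness was not tested.

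Members were also compared between the experiments. In 10 of the 47 tested members (21.3%), the 8 self-administration libraries did not overlap the 16 injection libraries, beside 7.18% of all genes. They were 5 of the 14 anchors, 4 of the 18 phosphodiesterases and Prkar1a, with none of the 9 cyclases. Lower in self-administration, beside 4.07% of all genes, were 7, namely Akap2, Akap6, Akap11, Pde1a, Pde4b, Pde4d and Prkar1a, and higher, beside 3.12%, were 3, namely Akap17a, Akap17b and Pde7a. Akap2, whose product anchors PKA to the actin cytoskeleton, had 11.1 to 15.2 FPKM in the injection libraries and 5.82 to 9.74 FPKM in the others. Pde4d, a cAMP-specific enzyme, had 4.96 FPKM at the lowest of the injection libraries and 4.91 FPKM at the highest of the others, so its groups barely parted. Prkar1a had 235.5 to 304 FPKM against 160.3 to 203 FPKM.

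Between the saline controls alone, the ratio of Saline-SA to Saline-Saline means was 0.398 for Pde4d, 0.437 for Prkacb, 0.449 for Adcy1, 0.481 for Akap5, 0.502 for Akap6, 0.523 for Akap2 and 0.554 for Pde4b. It was 0.971 for Prkaca, 1.17 for Adcy5 and 1.39 for Akap17b. Akap2, Pde4b and Pde4d overlap other listed genes, so their values are uncertain. The shares of mitochondrial reads given above moved with the experiments too, and so did lists of marker genes. Of 11 lists, the microglia list did not overlap, at 3.69 to 4.22 in the injection and 3.39 to 3.66 in the self-administration libraries. The other 10 overlapped. Among these, the median was higher in self-administration for medium spiny neurons (6.74 against 6.25) and endothelium (2.67 against 2.37) and lower for astrocytes (5.64 against 6.01) and oligodendrocytes (7.72 against 8.04). Their part in these differences was not tested.

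**Figure D4:**
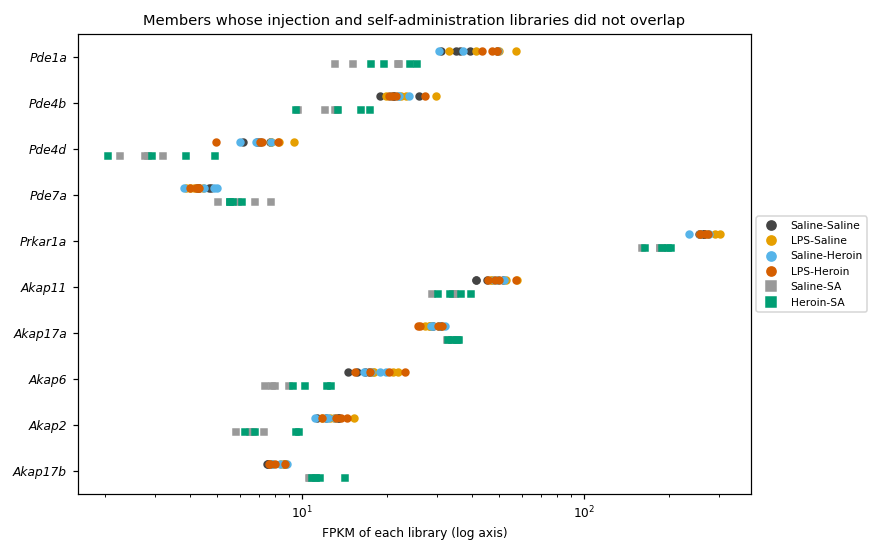
FPKM of every library on a log axis for the 10 members whose self-administration libraries (squares) did not overlap the injection libraries (circles). Prkar1a, Pde1a, Pde4b, Pde4d, Akap2, Akap6 and Akap11 lie to the left in self-administration, and Pde7a, Akap17a and Akap17b to the right.

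Libraries of 1 group differed in their level of the medium spiny neuron list. Each tested gene's deviation from its group mean was compared with that of the list over the 24 libraries, an analysis added after the data were seen. No member is on the list. P-values come from 100000 permutations of the libraries within their groups, two-sided, with 1e-05 as the smallest they can give, and were adjusted by Benjamini-Hochberg over 45354 relations, those of all 15118 genes with 3 lists. For the medium spiny neuron list, 12 of 47 members (25.5%) passed an adjusted p of 0.05, beside 2.16% of all genes. A gene's value and a list's value come from the same library and share its depth and its tissue.

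Pde1b followed the list most closely, with Pearson's r = 0.983 (permutation p = 1e-05, adjusted p = 0.00388) and Spearman's rho = 0.979 (permutation p = 1e-05, adjusted p = 0.00709). Adcy5 had r = 0.960 and rho = 0.939, with the same permutation p-values. Without the 2 libraries farthest from the median of the list, r was 0.975 for Pde1b and 0.942 for Adcy5. Within the 16 injection libraries alone r was 0.992 and 0.973, and within the 8 self-administration libraries 0.969 and 0.942.

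The other 8 members that varied in the same direction as the list were Pde2a (r = 0.862), Akap5 (0.824), Akap1 (0.823), Pde10a (0.816), Pde7b (0.785), Prkar2b (0.780), Pde8b (0.738) and Pde4b (0.719), with adjusted permutation p-values from 0.00388 to 0.0347. Spearman's rho lay between 0.715 and 0.827 for these, and that of Akap1 had an adjusted permutation p of 0.0603. Adcy6 and Adcy2 ran the other way, with r = -0.829 (permutation p = 5e-05, adjusted p = 0.0101) and r = -0.723 (permutation p = 0.00056, adjusted p = 0.0386). Their rho was -0.817 (adjusted permutation p = 0.0147) and -0.624 (adjusted permutation p = 0.12). Without the 2 farthest libraries the r of these 10 members stayed between 0.628 and 0.798 in size. All 12 kept their sign in both experiments taken apart. Pde2a, Pde4b, Pde8b, Prkar2b and Adcy2 overlap other listed genes.

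The family thus held members that went with medium spiny neuron markers from library to library and members that did not. The alpha catalytic subunit Prkaca had r = -0.118 (permutation p = 0.594, adjusted p = 0.865), and Prkar1b had r = -0.0423 (permutation p = 0.841, adjusted p = 0.955). Saline-Saline spanned 5.79 to 6.67 on the list, the widest range of any group. Within it Adcy5 ran from 95.1 to 162.8 FPKM and Pde1b from 185 to 326 FPKM, Adcy5 in the order of the list and Pde1b in that order apart from the lowest pair of libraries.

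With the cortical list, 0 of 47 members passed in this test beside 2.21% of all genes, and with the septal list 1 of 47 (2.13%) passed beside 1.05%. At an unadjusted permutation p of at most 0.05 there were 19 members for the cortical list beside 15.7% of all genes, 7 for the septal list beside 12.1% and 22 for the medium spiny neuron list beside 15.4%. Adcy1 had r = 0.488 with the cortical list (permutation p = 0.0486, adjusted p = 0.343) and rho = 0.629 (permutation p = 0.00468, adjusted p = 0.139), and r was 0.807 in the injection libraries and 0.167 in the others. Without the 2 farthest libraries its r was 0.633. Pde1a had r = 0.683 (permutation p = 0.00232, adjusted p = 0.08) and rho = 0.724, and 0.663 without the 2 farthest libraries. Akap12 passed with the septal list, at r = 0.715 (permutation p = 0.0003, adjusted p = 0.0272) and rho = 0.695 (permutation p = 0.0005, adjusted p = 0.0456), and at 0.697 without the 2 farthest libraries. Adcy7 had r = 0.704 (permutation p = 0.0012, adjusted p = 0.057) and rho = 0.641 with the same list, and r was 0.763 in the injection libraries and 0.278 in the others. Both also ran against the cortical list, Akap12 at r = -0.546 (permutation p = 0.0117, adjusted p = 0.181) and Adcy7 at r = -0.455 (permutation p = 0.0455, adjusted p = 0.333). In the injection libraries these were -0.604 and -0.711. The median r of the 47 members with the cortical list was -0.247, beside -0.0415 over all genes.

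**Figure D5:**
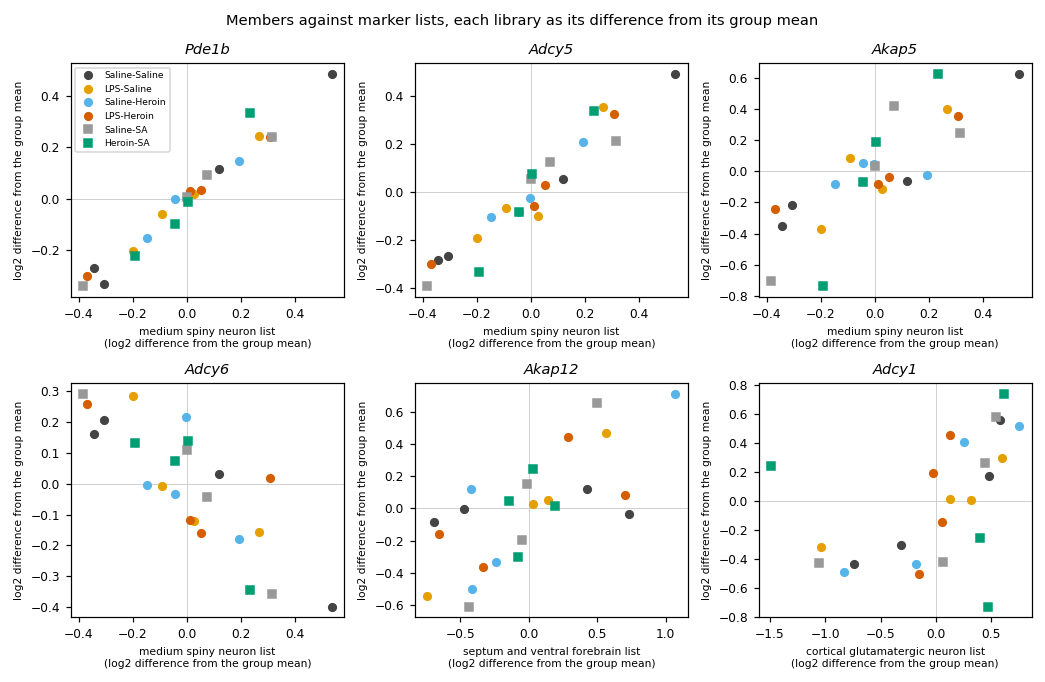
Difference of each library from its group mean on the log2 scale, for 6 members (vertical axes) against a list of marker genes (horizontal axes), with circles for injection and squares for self-administration libraries. Pde1b and Adcy5 lie close to a rising line with the medium spiny neuron list, Akap5 follows more loosely and Adcy6 falls. Akap12 rises with the septal list, and Adcy1 rises with the cortical list mainly in the injection libraries.

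The proximal promoters of these members are shown because their RNA moved together or was called. They are the 250 bases before the gene start in RefSeq, on build GRCr8, read 5′ to 3′ on the strand of the gene. Capitals mark the CRE core TGACG or its reverse complement CGTCA, and the GC box GGGCGG, the site of Sp-family factors, or its reverse CCGCCC.
Adcy1 (chr14:86124869-86125118, plus strand): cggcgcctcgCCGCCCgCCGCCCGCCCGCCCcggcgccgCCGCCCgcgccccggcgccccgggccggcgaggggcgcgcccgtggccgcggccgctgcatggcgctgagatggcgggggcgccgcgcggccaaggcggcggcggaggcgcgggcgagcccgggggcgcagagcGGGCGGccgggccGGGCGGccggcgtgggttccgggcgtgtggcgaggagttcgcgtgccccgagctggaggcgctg
Adcy5 (chr11:79123344-79123593, minus strand): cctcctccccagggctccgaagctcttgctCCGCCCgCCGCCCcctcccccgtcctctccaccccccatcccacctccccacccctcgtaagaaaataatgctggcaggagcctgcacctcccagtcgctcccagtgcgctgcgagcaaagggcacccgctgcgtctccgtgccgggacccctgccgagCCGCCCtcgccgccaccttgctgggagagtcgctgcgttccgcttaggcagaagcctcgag
Akap5 (chr6:100786919-100787168, plus strand): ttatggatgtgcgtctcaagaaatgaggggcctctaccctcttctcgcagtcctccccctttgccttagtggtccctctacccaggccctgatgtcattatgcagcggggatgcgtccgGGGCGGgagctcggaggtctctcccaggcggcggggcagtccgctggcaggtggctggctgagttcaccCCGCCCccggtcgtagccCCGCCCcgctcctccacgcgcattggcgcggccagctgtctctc
Pde10a (chr1:54765669-54765918, minus strand): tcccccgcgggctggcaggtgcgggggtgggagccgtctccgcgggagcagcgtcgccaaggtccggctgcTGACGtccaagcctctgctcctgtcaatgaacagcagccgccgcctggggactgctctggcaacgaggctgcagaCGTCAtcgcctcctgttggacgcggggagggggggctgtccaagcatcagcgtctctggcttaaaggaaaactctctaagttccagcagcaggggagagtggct
Akap12 (chr1:43135265-43135514, plus strand): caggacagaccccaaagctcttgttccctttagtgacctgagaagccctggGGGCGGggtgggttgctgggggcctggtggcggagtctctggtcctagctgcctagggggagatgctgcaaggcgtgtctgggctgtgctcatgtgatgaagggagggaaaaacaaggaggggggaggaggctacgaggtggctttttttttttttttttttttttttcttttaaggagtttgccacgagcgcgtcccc

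Adcy1 had 7 GC boxes in a window of 88% G and C, and no CRE core. An ATG in the Adcy1 window opens a reading frame that runs to the end of the window without a stop. The boxes written GGGCGG lie within that frame, so part of this window may be coding sequence and not promoter. Adcy5 and Akap5, which followed the medium spiny neuron list, each had 3 GC boxes and no CRE core, whereas Pde10a, which followed it too, had 2 CRE cores, 1 on either strand, and no GC box. Akap12 had 1 GC box. The promoters of Pde1a, Akap6 and Adcy7 held neither motif, and that of Pde8a held 1 CRE core and 3 GC boxes. Of the 54 members, 41 were matched to a RefSeq promoter by symbol, and Pde1b was not among them. A GC box on either strand was present in 21 of the 41 (51.2%) beside 30.5% of 33469 promoters, and a CRE core in 7 (17.1%) beside 18.2%. The full CRE, TGACGTCA, which contains the core on both strands, was present in 1 member (2.44%), Akap17a, beside 1.59%. A match is a description of the letters and shows no binding. The letters TATAAA or TTTATA were present in 0 of 41 beside 12.9%. The 33469 promoters were not chosen by gene type or expression, whereas the members are all protein coding. These shares are thus not of like sets and say nothing particular about the members.

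Genes that act before and after the cascade were followed as lists. Of 13 receptors that act on adenylyl cyclase, 1 was called in the injection experiment. Oprd1, the delta opioid receptor, had 5.40 ± 1.77 FPKM in LPS-Heroin and 3.13 ± 1.51 FPKM in Saline-Saline (SD, n = 4) and rose by 0.85 (standard error 0.37, adjusted p = 0.442 in limma). With LPS over the 16 libraries Oprd1 rose by 0.56 (standard error 0.22, adjusted p = 0.730 in limma). The mu receptor gene Oprm1, whose product heroin's metabolites bind most, had means between 0.265 and 1.06 FPKM and was not called where tested. In Heroin-SA against Saline-SA its means of 0.423 and 0.265 FPKM lay under the filter, and it was not tested. Of the 11 G protein subunits listed, only Gnas was called. It is listed as a pair of overlapping genes, of which 1 was called with a fall, so its values are uncertain. The PKA inhibitors with Epac (6 genes), the PKA substrates with the CREB family (10 genes) and the other PKA anchors (7 of 8 found) were not called in any contrast.

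Of 11 genes with a known CRE in their promoter, 5 fell with heroin in each experiment. In LPS-Heroin against Saline-Saline 1 rose, Dusp1, and none fell. The list was set with earlier results of these data known. Its counts are therefore a description and no independent test of the cascade, also where a share of all genes stands beside them. In LPS-Heroin against LPS-Saline, 6 of the 11 fell, beside 2.29% of all genes called either way. The LPS by heroin interaction called 0 of the 11, beside 2.31% of all genes. For LPS over the 16 injection libraries the log2 difference was positive in 11 of 11, with a median of 0.31 beside 0.00405 over all genes, and only Dusp1 was called. Over the 16 injection libraries these were Fos, Nr4a1, Junb, Fosb and Egr1, activity-dependent transcription factors, with log2 fold changes of -0.96 (standard error 0.21), -0.92 (0.22), -0.63 (0.18), -0.60 (0.17) and -0.59 (0.16) and adjusted p-values of 0.51 to 0.547 in limma. The share of all genes that fell with heroin over these libraries was 1.38%. Fos had 29.5 ± 7.1 FPKM in Saline-Saline, 15.2 ± 3.3 FPKM in Saline-Heroin, 39.7 ± 9.96 FPKM with LPS alone and 22.0 ± 12.4 FPKM in LPS-Heroin (SD, n = 4). In Heroin-SA against Saline-SA, Fos, Nr4a1, Junb and Fosb fell again, by 0.64, 0.61, 0.43 and 0.69 on the log2 scale, and Sik1 fell by 0.42 (adjusted p = 0.331 to 0.412 in limma), beside 2.41% of all genes. Dusp1, a phosphatase of MAP kinases, rose with LPS over the 16 injection libraries by 0.45 (standard error 0.15, adjusted p = 0.708 in limma).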

How the data were processed

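Poly-A RNA from the NAc was sequenced as directional libraries. Per the labels, the authors trimmed reads with fastp, aligned them with HISAT2 to build rn6, counted genes with featureCounts and deposited FPKM per gene and library; tool versions and the use of strand in counting are not given in the sources used here. Whole reads were recovered from 100% of FPKM values (tolerance 0.001). Genes with a mean of at least 0.5 FPKM in the libraries fitted were tested on log2(FPKM + 0.1) with limma 3.58.1 (R 4.3.3, trend), which understates changes of low genes. Pair comparisons used their 8 libraries, and the heroin, LPS and interaction terms the 16 injection libraries. Calls took an unadjusted p of at most 0.05 and 1.3-fold, with Benjamini-Hochberg adjustment over all genes. The labels call the samples biological replicates.

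The members, the lists and the rule for named genes (each called member, plus 14 members chosen for their known role) were set with earlier results of these data known. Alternatives were a pseudocount of 1, no filter, quantile normalization, limma-voom on recovered reads, all 24 libraries in one fit, a replicate block and leaving out each library; the fit without Saline-Saline replicates 1 and 4 and the relations to marker lists were added after seeing the data. Code was tested on simulated data. Promoters came from RefSeq (GRCr8) by symbol and shared no coordinates with the rn6 files. Depth was 12312878 to 18850240 reads on genes per library.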

Additional observations from a re-analysis of the deposited data

Results flagged for a closer look

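Among 114 groups of 4 libraries of the 19 named members, 2 held a library far from the other 3 by Dixon's test, where chance at 1 in 20 would give 5.7. Pde10a in Saline-SA replicate 4 was the lowest of its group at 30.61 FPKM, with a gap of 0.969 of the range. Pde4b in LPS-Heroin replicate 2 was the highest of its group at 27.28 FPKM, with a gap of 0.837. The medium spiny neuron list was also lowest in Saline-SA replicate 4 (6.34) and highest in LPS-Heroin replicate 2 (6.52) within their groups, and its part in these values was not tested.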

How the results depend on the processing

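Each of the 13 calls was read again under its alternative settings, which gave 225 readings, with fits shared between calls of 1 contrast. Of these readings, 193 made the call again, 32 did not and 0 reversed. The calls not made lay in Adcy1 (LPS-Saline and heroin over the 16 libraries), Akap12 and Pde8a (Saline-Heroin) and Pde1a (LPS-Heroin). No member passed an adjusted p of 0.05 in limma or limma-voom under any setting; the smallest was 0.0674, for all 24 libraries in one fit. Members called in LPS-Saline against Saline-Saline were 1, and 0 with all 24 libraries in one fit. In Saline-Heroin against Saline-Saline they were 2, and 1 with a pseudocount of 1 (Akap12), 1 without the filter (Pde8a), 1 with the replicate block and 0 without Saline-Saline replicates 1 and 4. In LPS-Heroin against LPS-Saline they were 0, and 1 in limma-voom (Adcy7) and 2 with the replicate block (Adcy1, Akap12). In Heroin-SA against Saline-SA they were 2, and 4 with all 24 libraries in one fit.

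Leaving out 1 library at a time gave 0 to 2 in LPS-Saline, 0 to 4 in Saline-Heroin and 3 to 5 in LPS-Heroin against Saline-Saline, 0 to 2 in LPS-Heroin against LPS-Saline and against Saline-Heroin, 2 to 6 in Heroin-SA, 2 to 3 for heroin, 1 to 2 for LPS, 0 to 1 for the interaction and 0 to 2 for the difference between experiments. The 6 came without Heroin-SA replicate 3 (Adcy1, Adcy5, Akap6, Pde4b, Pde9a, Prkacb) and the 4 in Saline-Heroin without Saline-Saline replicate 3 (Akap5, Pde10a, Pde8a, Pde8b). The counts of this section are given without the share of all genes called in the same fits. They are therefore not read as a result about the members. Same-numbered libraries did not deviate together: of 28 pairs, 4 had a correlation above 0.1 (-0.158 to 0.174), so the replicate block rests on a shared number alone. The cause of these changes was not tested.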
